A study of Mus musculus with 2 samples.

Results

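Glutathione transferases and glutathione peroxidases were described in the adrenal gland of 10-day-old B6CASTF1/J female mice. Members were the genes whose symbol is a Gst class letter (a, m, o, p, k, t or z), Mgst or Gpx followed only by a number and that have a transcript annotated as protein-coding. This rule gave 33 of the 55536 annotated genes, of which 22028 are protein-coding. They comprise 21 cytosolic transferases in 6 classes (4 alpha, 7 mu, 3 pi, 4 theta, 1 zeta and 2 omega), 1 kappa transferase, 3 microsomal transferases and 8 peroxidases. The rule used names and annotation only, not measured values.

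B6CASTF1/J is the first cross of the inbred strains C57BL/6J and CAST/EiJ. The series holds 1 group, adrenal gland tissue at 10 days of age, with 2 libraries of total RNA called replicate 1 and replicate 2. Each was made with a directional kit from 300 ng of RNA, with ribosomal RNA reduced and ERCC spike-in RNA added. There is no treatment, mutant or other age, so the values give the make-up of this family in the tissue and the spread between 2 samples. In the labels the tissue samples come from females with different numbers, whereas both library descriptions give a single female and a single cDNA number, under 1 donor entry. Whether the replicates are separate animals is not settled by the labels. An SD over n = 2 is thus the spread of these samples alone and may be technical.

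The libraries held 35636846 expected counts in replicate 1 and 33378436 in replicate 2. Markers of the adrenal cortex and medulla were high in both. Hsd3b1, a steroid dehydrogenase, stood at 1456 TPM in replicate 1 and 1424 TPM in replicate 2, Cyp21a1, the steroid 21-hydroxylase, at 818 and 844 TPM, and the chromaffin granule protein Chga at 347 and 314 TPM, with Chgb at 294 and 265 TPM. TPM is a share of all transcripts in which counts are divided by transcript length, so levels of different genes can be compared. The libraries stood apart in markers of neighbouring tissues. The marker lists were chosen with earlier results of these data known, so their calls are description only. The 8 hepatocyte markers summed to 5638 TPM in replicate 1 and 1092 TPM in replicate 2, and all 8 (Alb, Trf, Ahsg, Apoa1, Ttr, Fgb, Apob and Serpina1a) were called higher in replicate 1. The 9 kidney epithelial markers summed to 1.06 TPM in replicate 1, with Slc22a6 at 0, and to 250.7 TPM in replicate 2. All 9 reported here (Slc34a1, Kap, Slc5a2, Lrp2, Slc12a3, Umod, Slc12a1, Aqp2 and Slc22a6) were called higher in replicate 2. Of 8 skeletal muscle markers 7 were called higher in replicate 1 (Acta1, Mylpf, Tnnt3, Ckm, Tnnc2, Atp2a1 and Myh8) and Myh4 in replicate 2. Of 6 erythroid markers 3 were called higher in replicate 1 (Slc4a1, Hemgn and Epb42), while the globin genes Hba-a1 and Hbb-bs were within 2-fold. No marker of cortex (8 genes), medulla (6), brown fat (5, led by Ucp1 and Cox8b), adipocytes (5, led by Fabp4 and Plin1), macrophages (5, led by Lyz2 and Csf1r) or endothelium (4, led by Egfl7 and Cdh5) was called. A call takes at least 2-fold, as set out below. The log2 ratios, replicate 1 over replicate 2, ran from -0.61 to -0.01 in cortex and from -0.54 to 0.17 in medulla. In brown fat they ran from -0.46 to -0.16. Fewer cells of a type and less RNA per cell cannot be told apart in bulk tissue.

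Glutathione is a tripeptide whose cysteine thiol is used both to trap reactive compounds and to reduce peroxides. Glutathione transferases join it to electrophiles, such as products of lipid oxidation and foreign compounds, and the conjugates are then exported. Glutathione peroxidases use it, or another thiol, to reduce hydrogen peroxide and lipid hydroperoxides to water and alcohols. The adrenal cortex makes steroids with mitochondrial cytochromes P450, whose electron transfer also releases reactive oxygen.

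Peroxidases fall into those with selenocysteine and those with cysteine at the catalytic site, and the codon is visible in the transcript. Selenocysteine is encoded by TGA, which otherwise ends translation. The annotation marks a selenocysteine in Gpx1, Gpx2, Gpx3 and Gpx4 only. The stretches below are shown because they carry this difference. Each has 33 bases of the coding strand, 5′ to 3′, from the GENCODE M21 transcripts (GRCm38), with the TGA or the aligned cysteine codon in capitals.
Gpx1: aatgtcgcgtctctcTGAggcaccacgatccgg
Gpx2: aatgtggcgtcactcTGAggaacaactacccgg
Gpx3: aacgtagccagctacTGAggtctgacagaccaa
Gpx4: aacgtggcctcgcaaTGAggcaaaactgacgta
Gpx5: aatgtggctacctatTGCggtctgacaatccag
Gpx6: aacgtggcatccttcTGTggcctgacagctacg
Gpx7: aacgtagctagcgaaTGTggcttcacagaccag
Gpx8: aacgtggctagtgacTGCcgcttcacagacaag
The capital codon is number 47 of the Gpx1 coding sequence, 40 of Gpx2, 73 of Gpx3, Gpx5 and Gpx6, 129 of Gpx4 (transcript Gpx4-201), 56 of Gpx7 and 79 of Gpx8. The 3 most abundant peroxidases in the gland all carried TGA, as the levels below show.

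The other sequences that bear on the values are those of Gstp1 and Gstp2. Their coding sequences of 633 bases differ at 12 positions, 6 of them in the first 60 bases, which are shown with the differing bases in capitals (chromosome 19, coding strand).
Gstp1: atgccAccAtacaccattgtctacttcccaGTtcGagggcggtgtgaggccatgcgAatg
Gstp2: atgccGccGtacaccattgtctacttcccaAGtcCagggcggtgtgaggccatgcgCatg
A read that lies within a stretch identical in both transcripts could come from either gene.

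Of the 33 members, 26 reached 1 TPM in both libraries, 78.8%, beside 58.2% of all protein-coding genes. Of these, 19 were at 10 TPM or more in both, and Gpx4, Mgst1 and Gpx1 were at 100 TPM or more in both. The median of the mean TPM was 22.2 over the 26 detected members and 10.1 over detected protein-coding genes. Summed TPM of all members was 1290 in replicate 1 and 1537 in replicate 2, which is 0.379% and 0.470% of the TPM of nuclear protein-coding genes.

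**Figure D1:**
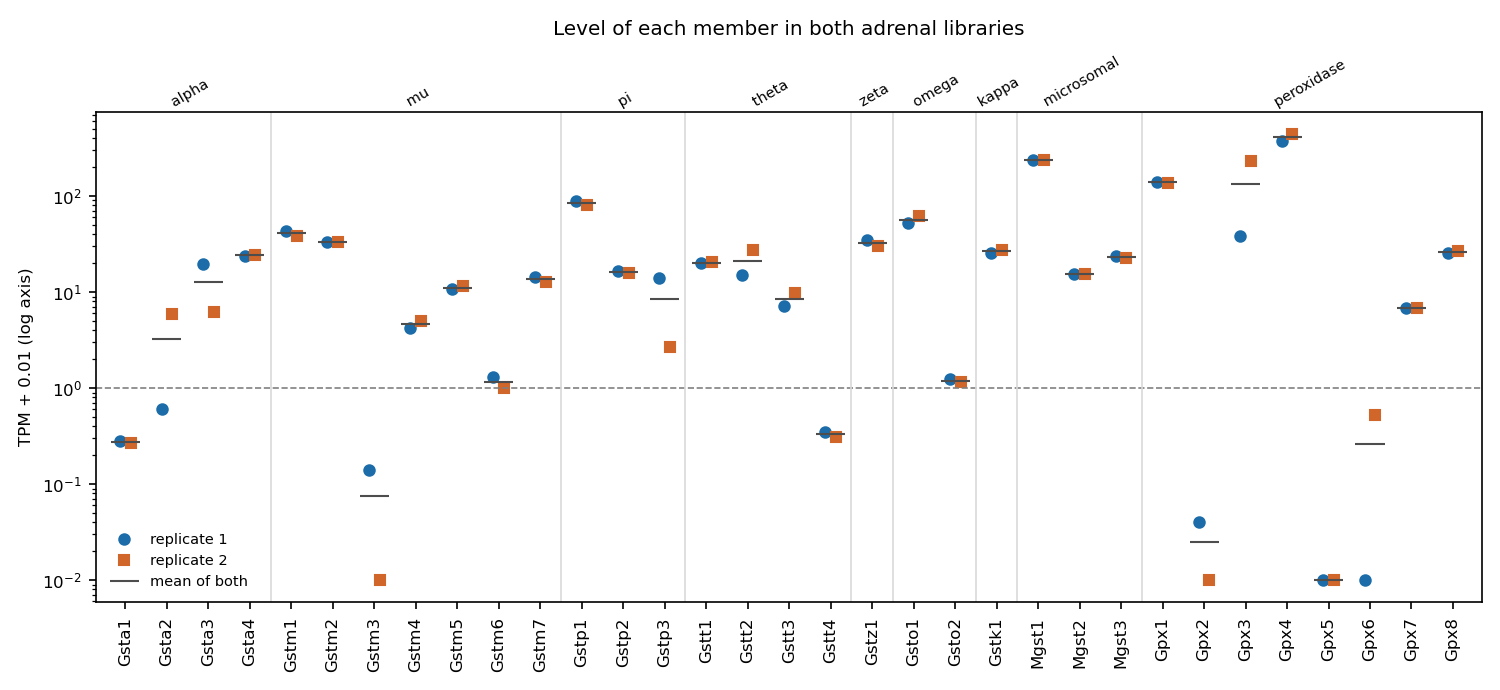
Level of each of the 33 members in TPM + 0.01 on a log axis, by class, with circles for replicate 1, squares for replicate 2 and a bar for their mean. The dashed line marks 1 TPM. Most members show nearly equal circles and squares, while Gsta2, Gsta3, Gstp3 and Gpx3 are far apart. So are Gstm3, Gpx2 and Gpx6, which are below 1 TPM in both libraries.

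Among the alpha class, Gsta4 was the most abundant and the most even. Gsta4, which conjugates 4-hydroxynonenal, a product of lipid oxidation, stood at 24.0 TPM in replicate 1 and 24.2 TPM in replicate 2 and made up 60.1% ± 8.70 (SD, n = 2) of the summed TPM of the class. Gsta3, known in mouse liver for conjugating the epoxide of aflatoxin, stood at 19.6 TPM in replicate 1 and 6.14 TPM in replicate 2. Gsta2, an inducible member, stood at 0.60 TPM in replicate 1 and 5.90 TPM in replicate 2. Gsta1 stood at 0.27 TPM in replicate 1 and 0.26 TPM in replicate 2. Between the libraries the order of Gsta2 and Gsta3 stayed the same but the gap closed, and Gsta3 held 44.1% of the class in replicate 1 and 16.8% in replicate 2. Gsta1, Gsta2 and Gsta4 lie together on chromosome 9, with Gsta4 at chr9:78182774-78209349 in mm10, and Gsta3 lies alone at chr1:21240589-21265661.

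The 7 mu genes lie in 1 cluster on chromosome 3, between 107895821 and 108044894. The 6 of them that were detected in both libraries were each within 2-fold between the libraries. Mu transferases conjugate epoxides and quinones, among other electrophiles. Gstm1 stood at 43.3 TPM in replicate 1 and 38.7 TPM in replicate 2, and Gstm2 at 33.4 and 33.5 TPM. Together they held most of the class, with 39.0% ± 1.82 and 31.8% ± 1.14 of its summed TPM (SD, n = 2). Gstm7 followed at 14.5 TPM in replicate 1 and 12.8 TPM in replicate 2, then Gstm5 at 10.7 and 11.6 TPM. Gstm4 stood at 4.23 TPM in replicate 1 and 5.04 TPM in replicate 2, and Gstm6 at 1.30 and 1.00 TPM, the value of replicate 2 being at the limit of detection used here. Gstm3 had 5 counts in replicate 1 and 0 in replicate 2. Within each library Gstm1 exceeded Gstm2 in the gene table, by a log2 ratio of 0.29 ± 0.12 (SD, n = 2). The ratio was 0.10 ± 0.10 in the other quantification, which is not larger than its SD. With protein-coding transcripts only it was 0.10 in replicate 1 and -0.12 in replicate 2.

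In the pi class Gstp1 led. Gstp1, the pi transferase that also binds signalling kinases, stood at 89.1 TPM in replicate 1 and 80.3 TPM in replicate 2, which was rank 653 of the 22028 protein-coding genes by mean TPM. Gstp2 stood at 16.6 TPM in replicate 1 and 15.8 TPM in replicate 2. Gstp3 stood at 14.1 TPM in replicate 1 and 2.67 TPM in replicate 2, and so its share of the class was 11.8% and 2.70%. The log2 ratio of Gstp1 over Gstp2 was 2.39 ± 0.05, and 1.74 ± 0.09 with protein-coding transcripts only (SD, n = 2 each). In the other quantification it was 2.44 in replicate 1 and 2.03 in replicate 2. The credibility interval that the authors deposited for replicate 2 ran from 55.4 to 83.4 TPM for Gstp1. For Gstp2 it ran from 13.2 to 38.8 TPM. The SD of the ratio does not cover how reads were split between these genes. All 3 genes are neighbours on chromosome 19, with Gstp1 at chr19:4035407-4037985.

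Theta, zeta and omega transferases include enzymes with roles beyond conjugation. Gstt1, a theta transferase that acts on halogenated compounds, stood at 19.95 TPM in replicate 1 and 20.7 TPM in replicate 2. Gstt2 stood at 15.1 TPM in replicate 1 and 27.3 TPM in replicate 2. The order of Gstt1 and Gstt2 therefore differed between the libraries, with a log2 ratio of Gstt1 over Gstt2 of 0.40 in replicate 1 and -0.40 in replicate 2. This order rests on transcripts of Gstt2 that are not annotated as protein-coding. With protein-coding transcripts only, Gstt2 stood at 8.83 TPM in replicate 1 and 15.8 TPM in replicate 2, and Gstt1 was above it in both libraries, by 0.78 ± 0.56 on the log2 scale (SD, n = 2). Gstt3 stood at 7.09 TPM in replicate 1 and 9.79 TPM in replicate 2, and Gstt4 at 0.34 and 0.30 TPM.

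Gstz1, the maleylacetoacetate isomerase of tyrosine breakdown, stood at 34.5 TPM in replicate 1 and 30.5 TPM in replicate 2. Gsto1, whose family reduces dehydroascorbate and mixed disulfides, stood at 52.1 TPM in replicate 1 and 61.8 TPM in replicate 2. Its neighbour Gsto2 stood at 1.23 and 1.14 TPM, so that Gsto1 held 97.9% ± 0.349 of the omega total (SD, n = 2). Gstk1, the kappa transferase of mitochondria and peroxisomes, stood at 25.7 TPM in replicate 1 and 27.5 TPM in replicate 2.

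Of the microsomal transferases, membrane proteins unrelated in sequence to the cytosolic ones, Mgst1 was by far the highest. Mgst1, found in the endoplasmic reticulum and the outer mitochondrial membrane, stood at 239.7 TPM in replicate 1 and 235.8 TPM in replicate 2. With 238 ± 2.75 TPM (SD, n = 2) it had rank 220 of the protein-coding genes and 86.1% of the summed TPM of its class. Mgst3 stood at 23.6 TPM in replicate 1 and 22.6 TPM in replicate 2, and Mgst2, which can make leukotriene C4, at 15.3 and 15.5 TPM. The log2 ratio of Mgst1 over Mgst3 was 3.36 ± 0.03 (SD, n = 2). Mgst1 lies at chr6:138140316-138156755.

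The peroxidases held the highest level of the whole family. Gpx4, which reduces phospholipid hydroperoxides within membranes and protects cells from ferroptosis, stood at 373.7 TPM in replicate 1 and 444.4 TPM in replicate 2, rank 92 of the protein-coding genes. Gpx1, the peroxidase of cytosol and mitochondria, stood at 139.9 TPM in replicate 1 and 137.7 TPM in replicate 2. Gpx3, the secreted peroxidase of plasma, which in adults is made largely by the kidney, stood at 38.2 TPM in replicate 1 and 230.5 TPM in replicate 2. Gpx1 was thus above Gpx3 in replicate 1 and below it in replicate 2. Gpx4 was above Gpx1 in both, by a log2 ratio of 1.55 ± 0.19 (SD, n = 2). The ratio of Gpx4 over Gpx1 was smaller, 1.26 ± 0.16, in the other quantification. With protein-coding transcripts only it was 1.01 ± 0.15 (SD, n = 2 each). The credibility interval that the authors deposited for Gpx3 ran from 36.0 to 39.4 TPM in replicate 1 and from 221.6 to 230.1 TPM in replicate 2. Gpx4 lies at chr10:80047166-80056439 and Gpx3 at chr11:54902453-54910377.

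The other 5 peroxidases were lower. Gpx8 and Gpx7, cysteine peroxidases that work with protein disulfide isomerases in the endoplasmic reticulum, were even between the libraries. Gpx8 stood at 25.5 TPM in replicate 1 and 26.7 TPM in replicate 2, and Gpx7 at 6.77 and 6.79 TPM. Gpx5, a peroxidase of the epididymis, was at 0 counts in both libraries, which allows up to 3 counts (0.0842 CPM in replicate 1 and 0.0899 CPM in replicate 2). Gpx6, known from olfactory epithelium, had 0 counts in replicate 1 and 16 in replicate 2. With replicate 1 set to 3 counts it was 5.94-fold higher in replicate 2, the counting error of the 16 being left out. The deposited credibility interval of Gpx6 reached up to 0.261 TPM in replicate 1 and began at 0.294 TPM in replicate 2. Gpx2, a peroxidase of gut epithelium, had 1 count in replicate 1 and 0 in replicate 2.

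By class, summed TPM was 402.0 in replicate 1 and 389.2 in replicate 2 for the cytosolic transferases, 278.6 and 273.9 for the microsomal ones, and 584.2 and 846.6 for the peroxidases. The peroxidase sum had an SD of 186 TPM around a mean of 715 TPM, and most of the difference lay in Gpx3 and Gpx4. When the 33 members are ordered by mean TPM, 15 of the 32 neighbouring pairs had ranges that did not overlap and 17 overlapped. Gpx4, Mgst1 and Gpx1 differed in that order beyond the spread of the 2 libraries, but Gpx1 did not differ from Gpx3, nor Gpx3 from Gstp1. Of 9 ratios between paired members, 6 were larger than their SD between the libraries. These also included Gsto1 over Gsto2, at a log2 ratio of 5.58 ± 0.25, and Gpx8 over Gpx7, at 1.94 ± 0.04 (SD, n = 2 each). In the other quantification these 2 ratios were 4.88 ± 0.40 and 1.81 ± 0.03. With protein-coding transcripts only, Gsto1 over Gsto2 was 5.15 ± 0.02. Gsta4 over Gsta3 (1.14 ± 1.19), Gstt1 over Gstt2 (0.00 ± 0.56) and Gpx1 over Gpx3 (0.56 ± 1.85) were not. The other quantification also gave 6, but without Gstm1 over Gstm2 and with Gsta4 over Gsta3 (1.26 ± 1.23). Protein-coding transcripts alone gave 6 as well, without Gstm1 over Gstm2 and with Gstt1 over Gstt2.

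How far each member differed between the libraries was examined with a binomial test per gene, exact and two-sided, on counts scaled by TMM. P-values were adjusted by Benjamini-Hochberg over 18883 genes whose counts summed to at least 20. A gene was called at an adjusted p under 0.05 and at least 2-fold. The test compares 2 libraries and covers counting error only, so it says nothing of animals. Of the 33 members 27 had enough counts to be tested. Of these 2 were called higher in replicate 1 (background 4.11% of genes) and 2 higher in replicate 2 (background 2.74%). The other 23 tested members were not called. They were the members within 2-fold, 85.2% of those tested, beside 92.0% of all genes tested. The median log2 ratio of the 27, replicate 1 over replicate 2, was -0.05, beside 0.01 over all genes tested.

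Gstp3 and Gsta3 were the members called higher in replicate 1. Gstp3 had 277 counts in replicate 1 and 49 in replicate 2, a ratio of 5.07 (95% interval 3.73 to 7.02, exact test, adjusted p = 2.71e-33). Gsta3 had 665 counts in replicate 1 and 208 in replicate 2, a ratio of 2.87 (2.45 to 3.37, exact test, adjusted p = 1.11e-44). In the same direction went the hepatocyte markers, at a median log2 ratio of 2.29 over 8 genes, the skeletal muscle markers, at 1.57 over 8, and the erythroid markers, at 1.49 over 6. Among the muscle markers Myh4 went the other way, at a log2 ratio of -3.35. These lists were chosen with earlier results of these data known, and their part in the values of Gstp3 and Gsta3 was not tested.

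Gpx3 and Gsta2 were the members called higher in replicate 2. Gpx3 had 1921 counts in replicate 1 and 10764 in replicate 2, a log2 ratio of -2.64 and 6.24-fold higher in replicate 2 (95% interval 5.95 to 6.56). Gsta2 had 16 counts in replicate 1 and 137 in replicate 2, a log2 ratio of -3.21 and 9.54-fold higher in replicate 2 (5.67 to 17.2, exact test, adjusted p = 9.89e-27). In the same direction went the kidney epithelial markers, at a median log2 ratio of -8.50 over 9 genes, with 1.06 TPM in all in replicate 1. Slc34a1, a phosphate carrier of the proximal tubule, stood at 0.14 TPM in replicate 1 and 80.8 TPM in replicate 2, and Kap, a kidney androgen-regulated protein, at 0.20 and 70.2 TPM. In replicate 1, where the kidney markers summed to 1.06 TPM, Gpx3 stood at 38.2 TPM. The kidney markers too were chosen with earlier results known, and their part in the values of Gpx3 and Gsta2 was not tested.

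Counting error alone was exceeded by 9 of the 27 tested members, 33.3%, beside 26.5% of all genes tested. Besides the 4 called members these were Gstt2, with 1.62-fold more in replicate 2, Gstt3, with 1.46-fold, Gsto1, with 1.20-fold, Gpx4, with 1.19-fold, and Gstp1, whose ratio was 1.09 in favour of replicate 1 at an adjusted p of 0.0499 in the exact test. All 5 lie under the 2-fold limit. Gstp1 was no longer beyond counting error with DESeq2 size factors (exact test, adjusted p = 0.0712), ERCC scaling (0.0917), a count minimum of 1 (0.0723) or the other quantification (0.232). Mgst1 had a ratio of 1.01 (95% interval 0.968 to 1.05) and Gpx1 of 0.985 (0.939 to 1.03).

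**Figure D2:**
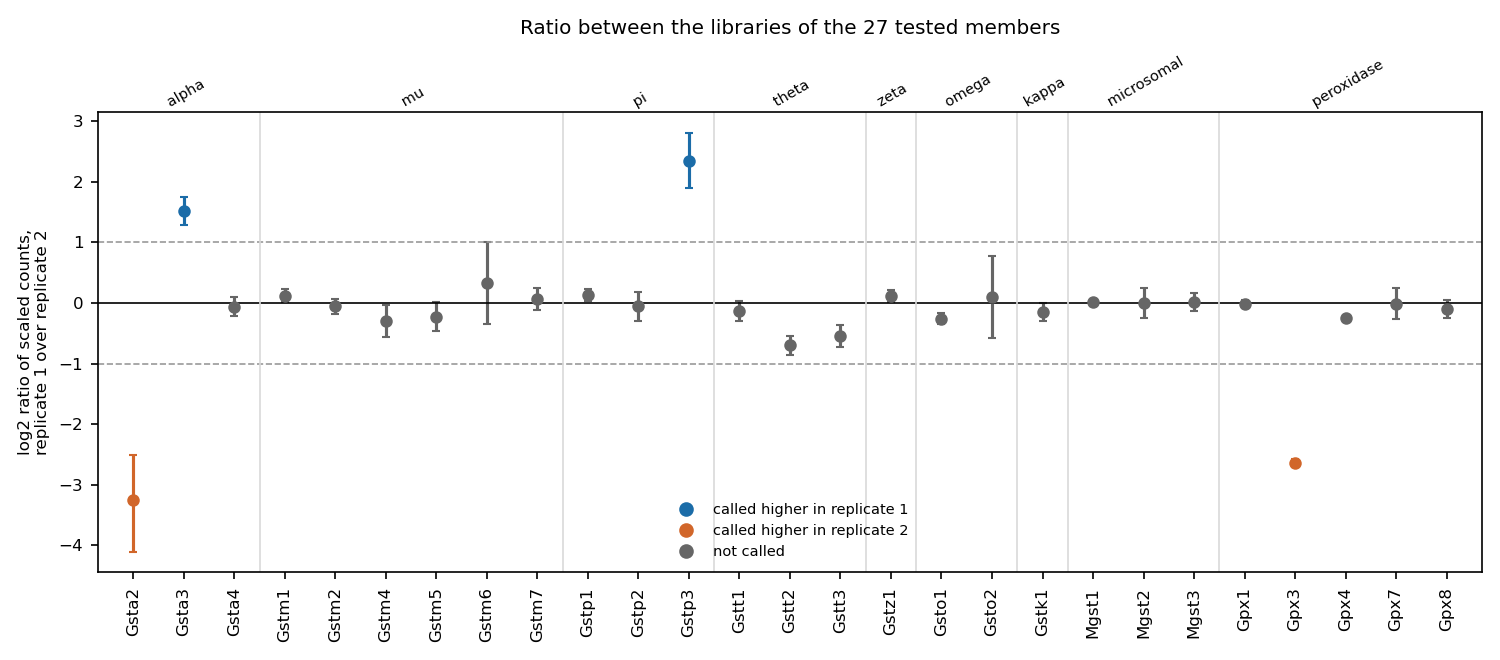
Log2 ratio of scaled counts, replicate 1 over replicate 2, for the 27 tested members by class, with exact 95% intervals that cover counting error only. Dashed lines mark 2-fold. Gsta3 and Gstp3 lie above the upper line, Gsta2 and Gpx3 below the lower one, and the other 23 points lie between the lines.

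Some members share sequence with relatives, and their values depend on how reads were divided. Coding sequences of different classes had a median identity of 54.4% (range 45.04% to 63.5%), while identity within a class reached 98.1% for Gstp1 with Gstp2 and 97.9% for Gsta1 with Gsta2. The 21 pairs of mu genes ranged from 69.6% to 89.5% with a median of 82.3%, and the 28 pairs of peroxidases from 48.5% to 71.8% with a median of 56.4%. The theta genes ranged from 61.1% to 75.8% and the microsomal ones from 53.6% to 56.7%, close to the identity between classes.

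**Figure D3:**
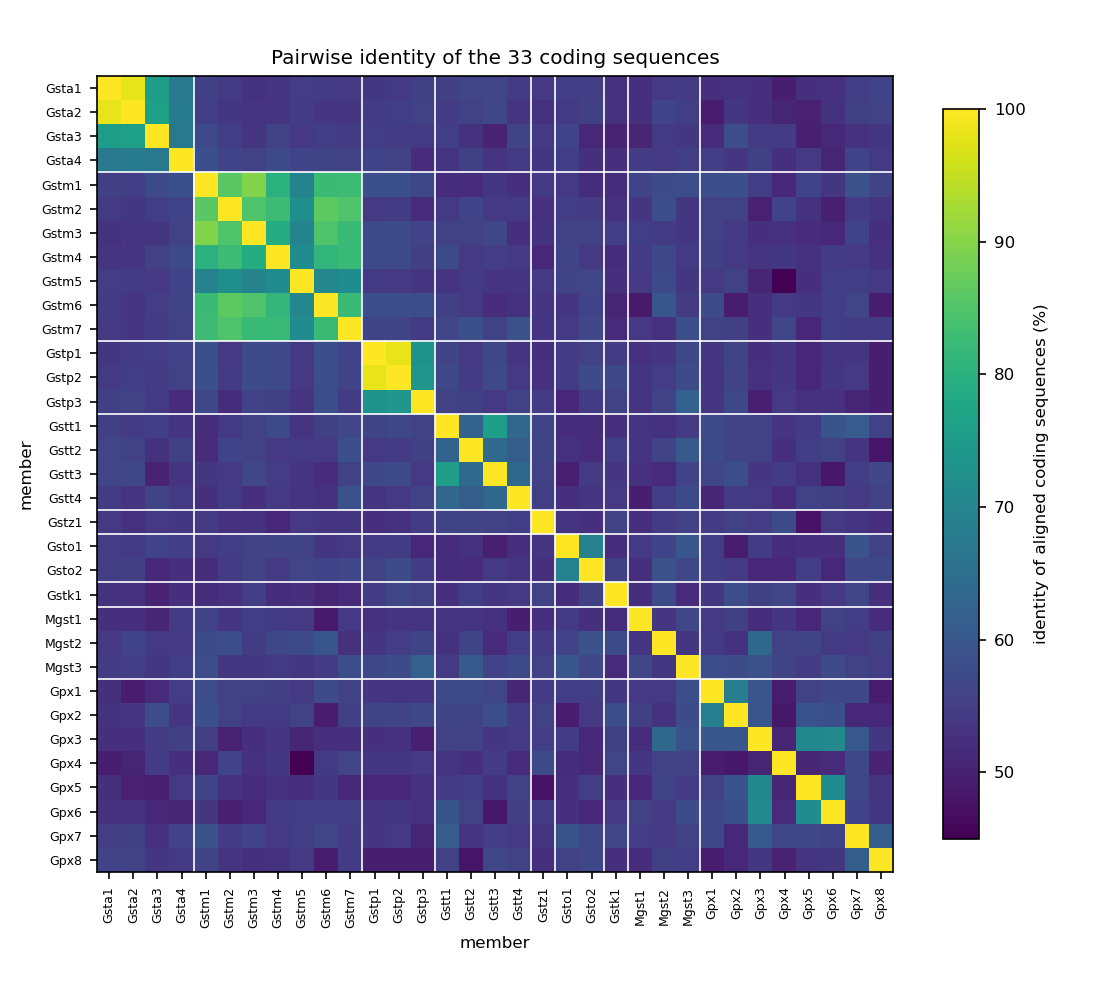
Percent identity of the aligned coding sequences for each pair of the 33 members, ordered by class, with white lines between classes. The bright blocks are the mu class, the pair of Gstp1 and Gstp2 (98.1%) and the pair of Gsta1 and Gsta2 (97.9%).

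Stretches of 100 bases that occur word for word in another gene mark where a read cannot be assigned. Gsta1 had 80.6% of its 100-base stretches in common with other genes (Gm3776, Gsta2 and Gm10639), Gstp2 46.9% (Gstp1 and the pseudogene Gstp-ps), Gsta2 28.4%, Gpx4 25.2% and Gstp1 25.1%. Gstm3 had 13.8%, Gstt3 10.8%, Gstm1 5.86%, and the other members 1.55% or less. The levels of Gsta1, Gsta2, Gstp1, Gstp2 and Gpx4 are therefore uncertain in how they are split among copies. For Gpx4 the copy is Gpx4-ps2, a transcribed pseudogene on the same chromosome, which the gene table lists at 37.4 TPM in replicate 1 and 43.0 TPM in replicate 2. The other quantification lists Gpx4-ps2 at 0 TPM in replicate 1 and 1.41 TPM in replicate 2. Gstt3 shares sequence with Gm20441, which the gene table lists at 0 in both libraries and the other quantification at 9.67 TPM in replicate 1 and 15.8 TPM in replicate 2.

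The authors deposited a separate quantification of the same libraries, which allows the levels to be compared. On a scale common to both, TPM rescaled to a fixed total over nuclear protein-coding genes, all 26 detected members were within 2-fold between them, and the log2 ratio of the other quantification over the gene table ran from -0.32 (Mgst3) to 0.45 (Gsto2). On this scale Gpx4 was at 1033 in the other quantification and 1229 in the gene table, Mgst1 at 600.2 and 712.8, and Gpx1 at 430.6 and 416.3. In the other quantification 27 members reached 1 TPM in both libraries, the addition being Gsta2 at 1.37 TPM in replicate 1 and 10.7 TPM in replicate 2.

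**Figure D4:**
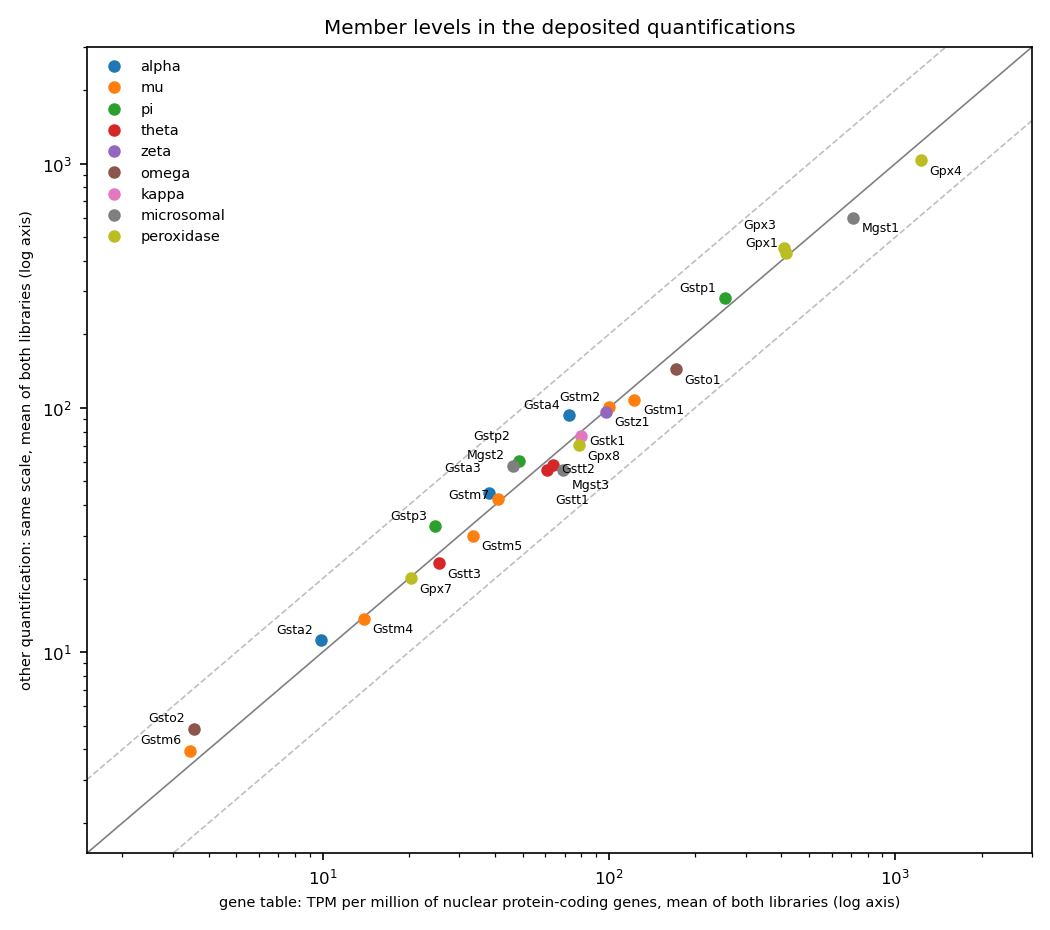
Mean level of the 27 members with a mean of at least 1 TPM in the gene table (horizontal) and in the other quantification (vertical), both rescaled to the same total over nuclear protein-coding genes, on log axes. The solid line is equality and the dashed lines are 2-fold, between which all points lie.

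In the gene table's quantification the leading transcript of each of the 26 detected members was annotated as protein-coding. It was the same in both libraries for 23 members in the gene table's quantification and for 25 in the other, and the same in both quantifications for 21. The 5 that differed were Gstp2, Gstp3, Gsto2, Mgst1 and Gpx1. For Gsto2 the leading transcript of the other quantification was Gsto2-208, which is not annotated as protein-coding, with 31.1% on average. For 11 members a single transcript held over 90% of the TPM in both libraries. Examples are Mgst3-201 and Gsta4-201 with 100% and Gpx3-201 with 99.7% in replicate 1 and 99.9% in replicate 2. In the other quantification Mgst3-201 again held 100%, whereas Gsta4-201 held 76.0% and Gpx3-201 78.3% on average.

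The 3 members at 100 TPM or more in both libraries were each divided among several transcripts. Gpx4-202 held 40.3% of the TPM of Gpx4 in replicate 1 and 37.9% in replicate 2. Gpx4-203, a retained-intron transcript of 280 bases, held 29.5% and 32.4%, and the protein-coding Gpx4-207 held 26.7% and 26.6%. In the other quantification Gpx4-202 held 84.9% on average and Gpx4-203 was at 0. Counting protein-coding transcripts only, Gpx4 stood at 261 TPM in replicate 1 and 298.6 TPM in replicate 2, still above Mgst1 at 239.7 and 235.8 TPM.

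Mgst1 was split between Mgst1-204, with 37.4% in replicate 1 and 39.9% in replicate 2, Mgst1-207, with 38.0% and 38.1%, and Mgst1-201, with 19.5% and 17.3%. The other quantification put 62.4% on Mgst1-201 on average and none on Mgst1-207. Gpx1 was split between Gpx1-204, with 55.0% in replicate 1 and 55.1% in replicate 2, and Gpx1-201, with 43.5% and 42.7%, an order that the other quantification turned round, with 38.5% and 59.5%. Transcripts not annotated as protein-coding held over 20% of the TPM in both libraries for Gstp1, Gstt2, Gsto1 and Gpx4. For Gstp1 this was mostly Gstp1-203, a retained-intron transcript, with 33.8% in replicate 1 and 36.5% in replicate 2. The other quantification gave Gstp1-203 5.01% on average and another retained-intron transcript, Gstp1-206, 20.6%. All transcripts of Gstp1 not annotated as protein-coding held 26.7% there on average. For Gsto1 such transcripts were mostly Gsto1-204, with 27.9% in replicate 1 and 39.9% in replicate 2, but 3.75% on average in the other quantification.

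**Figure D5:**
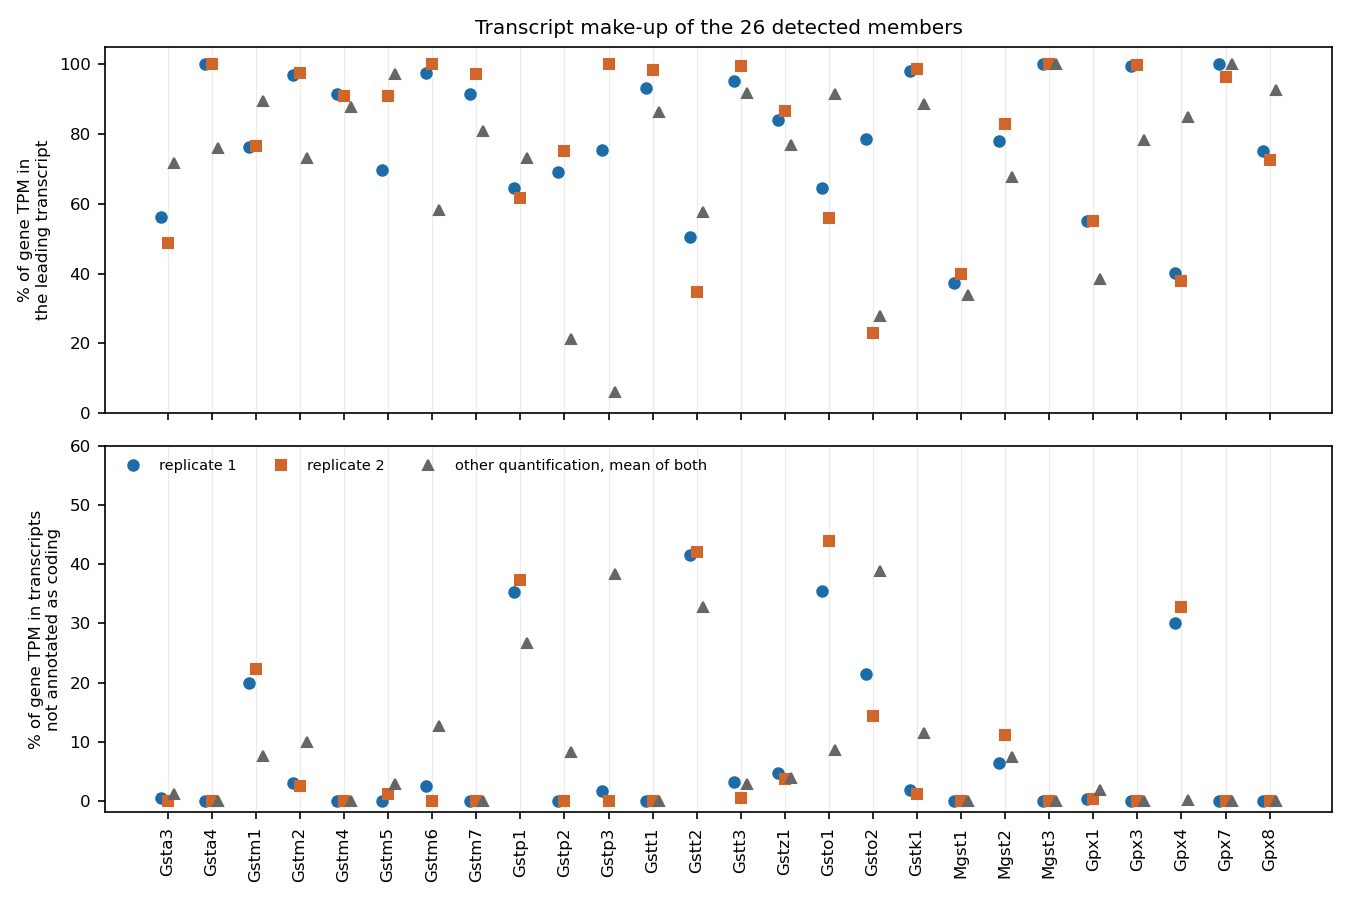
For the 26 detected members, the upper panel gives the percent of the gene's TPM in its leading transcript and the lower panel the percent in transcripts not annotated as protein-coding. Circles are replicate 1, squares replicate 2 and triangles the mean of both libraries in the other quantification. Gpx4-202 stands at 84.9% in the other quantification, against 40.3% in replicate 1 and 37.9% in replicate 2 of the gene table's quantification.

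Genes that supply, recycle and export glutathione were mostly even between the libraries. Of 7 genes of glutathione synthesis and supply, 6 were not called. Slc3a2, a chain of the cystine carrier, was among them, at 32.2 TPM in replicate 1 and 43.8 TPM in replicate 2. Slc7a11, the other chain of that carrier, stood at 0.11 TPM in replicate 1 and 0.14 TPM in replicate 2. Gclm, the modifier subunit of the rate-limiting ligase, was not called either, at 29.4 and 34.3 TPM. Cbs, which makes cystathionine on the way to cysteine, was called higher in replicate 1, at 5.89 TPM in replicate 1 and 2.79 TPM in replicate 2 (ratio 2.27, exact test, adjusted p = 1.86e-16). The list had a median log2 ratio of -0.17. Of 14 genes of recycling and breakdown, none was called higher in replicate 1 and 2 were called higher in replicate 2, with a median log2 ratio of -0.15. Ggt1, which splits extracellular glutathione, stood at 0.29 TPM in replicate 1 and 12.7 TPM in replicate 2, 44.7-fold higher in replicate 2. Dpep1, a dipeptidase of the same route, stood at 6.30 TPM in replicate 1 and 18.1 TPM in replicate 2, 2.70-fold higher in replicate 2. Both went the way of the kidney markers given above, whose part was not tested. The most abundant of this list were Esd, at 61.7 TPM in replicate 1 and 68.3 TPM in replicate 2, and the 5-oxoprolinase Oplah, at 51.3 and 57.1 TPM.

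No gene was called in the other lists. Among 8 glutaredoxins and conjugate exporters, Glrx5, a mitochondrial glutaredoxin of iron-sulfur cluster assembly, stood at 52.7 TPM in replicate 1 and 54.1 TPM in replicate 2. Glrx3 stood at 42.7 and 44.9 TPM. Of 11 other genes of related folds, the translation factor Eef1g, which carries a transferase-like domain, led at 134.4 TPM in replicate 1 and 110.1 TPM in replicate 2, followed by Clic4 at 42.2 and 40.1 TPM. In the list of 10 genes of selenoprotein synthesis and selenium supply, Selenop, the plasma carrier of selenium, stood at 231.0 TPM in replicate 1 and 151.6 TPM in replicate 2, a log2 ratio of 0.55. Sephs2, which makes selenophosphate for selenocysteine, stood at 62.4 TPM in replicate 1 and 56.5 TPM in replicate 2. In the NRF2 system (11 genes), a stress response that drives many transferase genes, the related factor Nfe2l1 stood at 98.9 TPM in replicate 1 and 99.0 TPM in replicate 2, and the thioredoxin reductase Txnrd1 at 32.0 and 27.1 TPM. The median log2 ratios of these lists were 0.02, 0.02, 0.03 and -0.03, beside 0.01 over all genes tested.

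Promoters were searched for the core of the antioxidant response element that NRF2 binds, TGACNNNGC on either strand, in windows of 250 bases before to 50 after the start (RefSeq, GRCm38.p6). Of the 33 members 31 had an entry, and Gsta4 and Gstt2 had none. The core was found in 4 of the 31, 12.9%, beside 14.0% of 27025 genes. These were Gsta3 (TGACATTGC, bases -121 to -113 from the start), Gstm5 (TGACCACGC, -42 to -34), Gstm7 (TGACAAAGC, -129 to -121) and Mgst1 (GCACGGTCA on the opposite strand, -56 to -48). The site of NR5A1, the main regulator of steroidogenic genes, CAAGGTCA on either strand, was in none of the 31 and in 1.76% of all genes. A match describes the letters only.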

How the data were processed

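Total RNA was sequenced from adrenal glands in 2 libraries of 1 group. For each library the authors deposited expected counts and TPM per gene and per transcript, and, from another quantification, estimated counts and TPM per transcript. Credibility bounds of TPM (a signal range) and each transcript's percent of its gene's TPM were also deposited by the authors. Per the notes deposited with the files, the assembly was mm10 and the annotation GENCODE M21. Aligner, quantifiers, strand use and the handling of CAST/EiJ variants were not given in the sources used here. Overlapping genes are therefore uncertain. TPM of the gene table is scaled over all features, spike-ins included. ERCC RNA took 0.979% of expected counts in replicate 1 and 0.929% in replicate 2. A further 26248 features with a bare number as ID took 1.96e-05% in replicate 1 and 1.8e-05% in replicate 2 and were left out of library sizes and tests.

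The members, lists and paired ratios were chosen with earlier results of these data known. Every member is reported, with values for those with a mean of at least 1 TPM, and from each list the 2 most abundant genes and those called are named. Slc7a11 is named besides. Some genes of the marker lists are not reported here and were left out of their sums and counts. Genes that share sequence with members were chosen after seeing which share it. Detected means 1 TPM or more in each library. Expected counts were rounded and scaled with TMM (edgeR 4.0.16, R 4.3.3), and each gene with a summed count of at least 20 was compared between the libraries with an exact two-sided binomial test (scipy 1.17.1, Python 3.11.15) and Benjamini-Hochberg adjustment. Log2 ratios use a prior count of 0.5, and ratios carry exact Clopper-Pearson 95% intervals. With 1 group the edgeR quasi-likelihood test has no contrast, and 2 libraries allow no exact p under 0.5. Intervals and the limit of 3 counts for a count of 0 cover counting error only. Coding sequences came from the GENCODE M21 transcripts, aligned with Biopython 1.88. The longest complete one of each member was used, which is not always that of the leading transcript, as with Gstm1-202 and Mgst1-202. Identity is the matching bases as a percent of the shorter sequence, with gaps at the ends free. No level for unrelated sequences was set beside it. Protein sequences were not used here.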

Additional observations from a re-analysis of the deposited data

How the results depend on the processing

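The same members, Gsta3 and Gstp3 for replicate 1 and Gsta2 and Gpx3 for replicate 2, were called under each of the 10 alternatives run for the library ratios (total count, DESeq2 1.42.0 or ERCC scaling, other count minimums, other fold limits, the other quantification, posterior mean counts and a prior count of 2). Gpx6 joined for replicate 2 without a count minimum of 20, and Gstt2 with a limit of 1.5-fold. With no fold limit 6 members were higher in replicate 2, and 2357 and 2650 of all genes were higher in replicates 1 and 2, beside 776 and 518. With a summed count of at least 100 these were 497 and 305. Members beyond counting error numbered 9 and ran from 8, without Gstp1, to 12 with total count scaling, which added Gstm1, Gstz1 and Mgst1 (exact test, adjusted p = 0.00497, 0.00271 and 0.0439). The log2 ratio of Gstm1 over Gstm2 turned to -0.0102 with protein-coding transcripts only, an alternative chosen after seeing the data. Detection gave 22 members at 5 TPM and 27 at 0.5 TPM or in the other quantification, and from 26 to 27 when 1 library was left out. Summed TPM of the cytosolic transferases was 396 and became 1186 when rescaled to nuclear protein-coding genes, 663 in the other quantification and 321 with protein-coding transcripts only. The microsomal sum was 276 and became 828 and 392 under the first and next of these, and the peroxidase sum was 715 and became 2153 and 1095. Rescaling and the restriction to coding transcripts change these sums by construction. With both quantifications rescaled to nuclear protein-coding genes, the cytosolic sum was 1189 in replicate 1 and 1226 in replicate 2 of the other quantification. In the gene table it was 1181 and 1191. The microsomal sum was 718 and 710, against 818 and 838, and the peroxidase sum 1584 and 2428, against 1716 and 2590. The cause of the differences left on this scale was not tested. With 1 library left out the cytosolic sum ran from 389.2 to 402.0 TPM, the microsomal from 273.9 to 278.6 and the peroxidase from 584.2 to 846.6. No paired analysis was possible because the series has 1 group. The common biological coefficient of variation, fitted over both libraries as 1 group, was 0.282. Despite its name it takes in all spread between these libraries beyond counting error, which may be technical. Depth limits Gstm6, with 46 counts in replicate 1, and Gsto2, with 43, whose ratio intervals run from 0.783 to 2.02 and from 0.672 to 1.72.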
